A study of Mus musculus with 6 samples.

Results

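The antioxidant response controlled by the transcription factor NRF2 was examined through 10 genes: Nfe2l2, which encodes NRF2, its inhibitor Keap1, and the target genes Nqo1, Gclc, Gclm, Hmox1, Txnrd1, Srxn1, Gsr and Slc7a11. They were taken by symbol from a table of read counts that lists 53599 genes, and all 10 were found and were among the 12691 genes that passed the expression filter. The libraries were made from RNA of mouse hepatocytes isolated 4 days after the animals received an adeno-associated virus (AAV), used here as a vehicle for gene transfer in vivo. There were 3 libraries from mice given AAV8-TBG-HA-Sox4-P2A-Cre, referred to as Sox4 and carrying the genotype label Sox4, and 3 from mice given AAV8-TBG-Cre, referred to as empty vector (EV) and labelled WT. Both vectors carried Cre recombinase behind TBG, a promoter active in hepatocytes. The methods state a dose of the Sox4 vector for RNA-Seq, but the dose of EV in these mice is not given in the sources used here. The plasmid that the methods call the empty vector has another backbone than the Sox4 plasmid, so the vectors may differ in more than Sox4. The study's methods describe young male mice on a C57BL/6J background with a Cre-inducible Cas9-EGFP allele, which Cre switches on in both groups, although the label of the EV group is WT. Cells were released by enzymatic digestion and enriched on Percoll with no sort for transduced cells, so each library can mix hepatocytes that did and did not take up the vector. The paper describes its AAV8 system as infecting nearly all hepatocytes, and the share in these libraries was not measured here. In bulk RNA of this kind, fewer cells of a type and less RNA per cell cannot be told apart.

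Under resting conditions KEAP1 binds NRF2 in the cytoplasm and hands it to a ubiquitin ligase for degradation. Oxidants and electrophiles modify cysteines of KEAP1, NRF2 then accumulates, pairs with a small MAF protein and binds the antioxidant response element in front of its target genes. The targets build and recycle glutathione, run the thioredoxin system, reduce quinones and break down heme, and the liver, which handles most foreign chemicals, is where the pathway has been studied most. Much of NRF2's control is on the protein, which RNA counts do not measure. The comparison asks how the transcripts of this pathway stood in hepatocytes given Sox4 against those given EV.

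To look for the antioxidant response element, the proximal promoters of the members were read from RefSeq (GRCm38.p6, 250 bases before to 50 bases after the annotated start). Elements farther from the start were not searched. The letters searched were TGACNNNGC on both strands. Of the 10 members, 7 had an entry and 4 of these, Nfe2l2, Gclm, Txnrd1 and Srxn1, held a match, against 14% of the 27025 genes in the promoter table. The matches are given here 5′ to 3′ along the gene, with the matched letters in capitals, because they let the elements be compared directly.
Nfe2l2: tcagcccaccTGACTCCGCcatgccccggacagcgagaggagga
Gclm: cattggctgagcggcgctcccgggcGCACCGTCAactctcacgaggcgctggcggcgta
Txnrd1: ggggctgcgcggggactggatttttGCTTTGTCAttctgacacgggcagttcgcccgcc
Srxn1: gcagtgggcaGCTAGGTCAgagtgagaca
The Nfe2l2 window lies at chr2:75704870-75704913 on the minus strand, and its match begins 240 bases before the start and reads along the gene. The Gclm window, at chr3:122245398-122245456 on the plus strand, has its match 134 bases before the start, on the opposite strand. The Txnrd1 window, at chr10:82859089-82859147 on the plus strand, has its match 92 bases before 1 of 3 annotated starts, also on the opposite strand. The Srxn1 window, at chr2:152105542-152105570 on the plus strand, has its match 28 bases after the start, within the transcript, on the opposite strand. None of the 4 windows holds TGANTCA, the AP-1 element that can overlap this motif. When an A or G was required before the letters, only Txnrd1 kept a match, against 7.2% of all genes. Keap1, Nqo1 and Slc7a11 had no match in the 300 bases read, and Gclc, Hmox1 and Gsr are named only. These are matches of letters, and no binding was measured.

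Sox4, the delivered gene, had 2, 0 and 3 counts in EV 1, EV 2 and EV 3 and 21697, 15097 and 11816 counts in Sox4 1, Sox4 2 and Sox4 3, as the labels say. Library totals ranged from 15090629 to 16964860 counts. Levels are given as CPM (counts per 1e+06 counts of a library) with library sizes scaled by the trimmed mean of M-values (TMM), which assumes that most genes do not change. Sox4 exceeded EV by a factor of 1.48 in scaled size and of 1.07 in total counts, so on library size alone the median log2 fold change of all genes was 0.51 in place of 0.04. A change smaller than this shift of 0.47 depends on the scaling. Hepatocyte markers were lower in Sox4 (8 of 10 fell, 5 on library size alone, summed level 131900 to 157900 CPM in EV against 91390 to 102000 CPM in Sox4), led by Alb in level. Every group held all 10 of them, which matches the labelled cell type.

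Of the 10 members, 7 were higher in Sox4 and 1 was lower at an adjusted p under 0.05 (edgeR quasi-likelihood test, Benjamini-Hochberg over all 12691 genes tested), and 2 did not pass. Nfe2l2, Nqo1, Hmox1, Txnrd1, Srxn1, Gsr and Slc7a11 rose, Keap1 fell, and the values of Gclc and Gclm, the subunits of the enzyme that starts glutathione synthesis, did not pass. Sox4 changed much of the transcriptome, with 29.0% of all tested genes higher and 26.0% lower, and the members' counts are to be read against these shares. The median log2 fold change of the members was 1.31, also with Slc7a11 at its lower bound, against 0.04 for all genes. In 9 of the 10 the libraries of the groups did not overlap, 8 higher and 1 lower, where 63.0% of all tested genes did not overlap in either direction. Slc7a11 passed the expression filter only through the Sox4 libraries, so among the other 9 members 6 were higher. On library size alone 9 members were higher and none was lower, where 50.9% of all tested genes were higher and 12.8% lower.

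**Figure D1:**
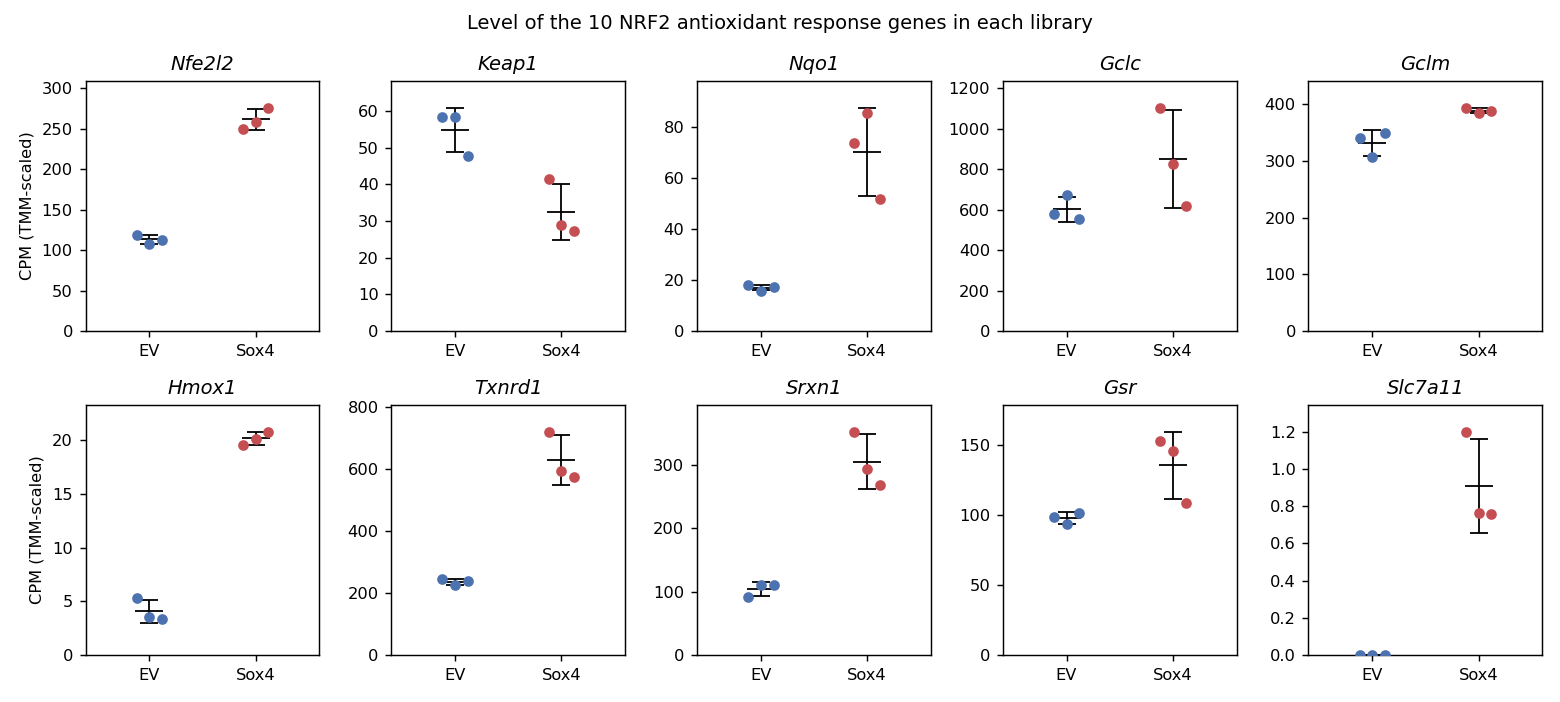
Level of each member in CPM on TMM-scaled library sizes, with a linear axis from 0 in each panel. Points are libraries (blue, EV, n = 3; red, Sox4, n = 3), and the bars give the mean and SD. The groups stand apart in every panel but that of Gclc, and only Keap1 is lower in Sox4.

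The regulators moved in opposite directions. Nfe2l2 (chromosome 2), the gene of NRF2 itself, stood at 119, 108 and 113 CPM in EV 1 to 3 and at 250, 258 and 276 CPM in Sox4 1 to 3. All Sox4 libraries were more than double any EV library, and the spread within each group was small. The mean rose from 113 ± 5.68 to 262 ± 13.1 CPM (SD, n = 3 in each group), a log2 fold change of 1.21 ± 0.06 (SE) or 2.31-fold (edgeR adjusted p = 2.13e-05). Of all tested genes, 14.7% had a larger log2 fold change.

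Keap1 (chromosome 9), the adaptor that delivers NRF2 to the CUL3 ligase, stood at 58.2, 58.3 and 47.8 CPM in EV and at 41.3, 28.8 and 27.2 CPM in Sox4. Every Sox4 library was below every EV library, with Sox4 1 the nearest. The mean fell from 54.8 ± 6.04 to 32.4 ± 7.75 CPM, 1.69-fold lower (log2 fold change -0.75 ± 0.21, edgeR adjusted p = 0.00409). On library size alone its log2 fold change was -0.29 (adjusted p = 0.166), so whether Keap1 passed depends on the scaling. A gene on the opposite strand, Gm16754, overlaps it and had at most 22 counts in a library, far below the 537 or more of Keap1.

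A ratio of counts within a library does not depend on scaling between libraries. The ratio of Nfe2l2 to Keap1, chosen after their values had been seen and taken per kilobase of exon, was 2.54, 2.29 and 2.92 in EV and 7.49, 11.1 and 12.6 in Sox4. All Sox4 libraries lay above all EV libraries. The ratio was 3.95-fold larger on average (difference of mean log2 ratio 1.98). It is a description with no test, since the pair was chosen for its values.

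**Figure D2:**
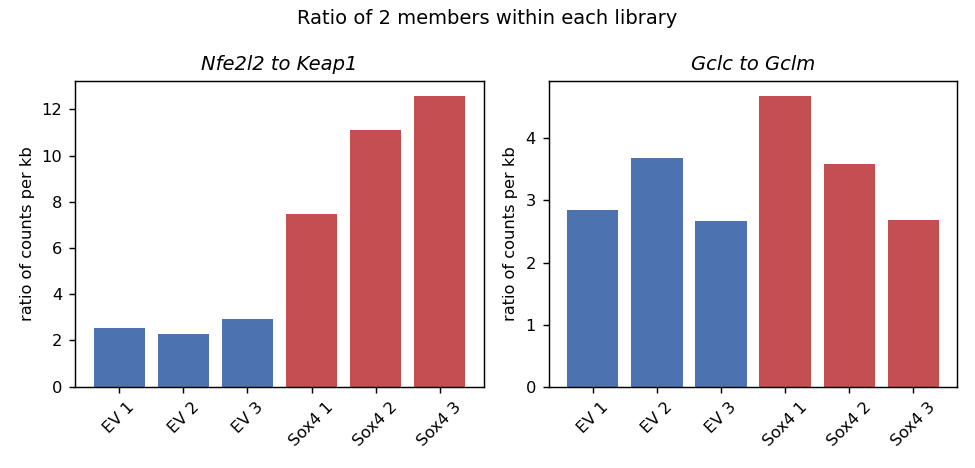
Ratio of counts per kilobase of exon within each library for Nfe2l2 to Keap1 (left) and Gclc to Gclm (right), 1 bar per library, blue for EV and red for Sox4. The left ratio lies between 2.29 and 2.92 in EV and between 7.49 and 12.6 in Sox4, whereas the right ratios of the groups overlap.

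Of the 4 members that serve glutathione, Gsr and Slc7a11 rose and Gclc and Gclm did not pass. Gclc (chromosome 9), the catalytic subunit of glutamate-cysteine ligase, which carries out the rate-limiting step of glutathione synthesis, had the highest level of the members. It stood at 578, 674 and 556 CPM in EV and at 1104, 825 and 621 CPM in Sox4. Sox4 3 lay below EV 2, so the groups overlapped, and the highest Sox4 library was 1.78 times the lowest. The means were 603 ± 62.5 and 850 ± 243 CPM, with a log2 fold change of 0.50 ± 0.25 that did not pass (edgeR adjusted p = 0.0634). Without Sox4 3 it passed at 0.68 (adjusted p = 0.00737), and it passed at 0.97 on library size alone (adjusted p = 0.00248).

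Gclm (chromosome 3), the modifier subunit that raises the efficiency of GCLC, stood at 339, 306 and 348 CPM in EV and at 393, 384 and 387 CPM in Sox4. The Sox4 libraries were all higher and lay close together, but by little. The means were 331 ± 22.2 and 388 ± 4.47 CPM, a log2 fold change of 0.23 ± 0.06 that did not pass (edgeR adjusted p = 0.132). It is smaller than the shift between scalings, and on library size alone it was 0.70 and passed (adjusted p = 0.000762). The ratio of Gclc to Gclm was 2.85, 3.68 and 2.67 in EV and 4.69, 3.58 and 2.68 in Sox4, and the groups overlapped, with a difference of the mean log2 ratio of 0.23.

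Gsr (chromosome 8), glutathione reductase, which returns oxidised glutathione to its reduced form, stood at 98.7, 93.3 and 102 CPM in EV and at 153, 146 and 108 CPM in Sox4. Sox4 3 was only just above the highest EV library. The mean rose 1.39-fold, from 97.8 ± 4.19 to 136 ± 23.9 CPM (log2 fold change 0.47 ± 0.16, edgeR adjusted p = 0.0176). This call was lost without EV 2 (0.42, adjusted p = 0.0819) and without Sox4 2 (0.42, adjusted p = 0.0634).

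Slc7a11 (chromosome 3), the light chain of the transporter that imports cystine for glutathione synthesis, had 0 counts in all EV libraries and 24, 15 and 15 counts in Sox4 1, Sox4 2 and Sox4 3. It thus passed the expression filter only through Sox4, where its level was 0.909 ± 0.254 CPM. Against a floor of 3 counts in each EV library (0.218 to 0.231 CPM, counting error only), it was at least 4.03-fold higher. Even in Sox4 it remained the lowest of the members by far.

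Both thioredoxin members rose. Txnrd1 (chromosome 10), cytosolic thioredoxin reductase, which passes electrons from NADPH to thioredoxin, stood at 245, 225 and 237 CPM in EV and at 720, 593 and 572 CPM in Sox4. The lowest Sox4 library was more than double the highest EV library. The mean rose 2.67-fold, from 235 ± 10.3 to 628 ± 80.0 CPM (log2 fold change 1.42 ± 0.11, edgeR adjusted p = 2.67e-05). Genes that overlap Txnrd1 in the annotation, the most abundant being Eid3, had at most 16 counts in a library.

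Srxn1 (chromosome 2), sulfiredoxin, which repairs over-oxidised peroxiredoxins, stood at 92.0, 110 and 111 CPM in EV and at 352, 293 and 267 CPM in Sox4. The groups were well apart, with Sox4 1 the highest library as for Txnrd1. The mean rose 2.92-fold, from 104 ± 10.6 to 304 ± 43.5 CPM (log2 fold change 1.55 ± 0.15, edgeR adjusted p = 2.08e-05). A larger log2 fold change was found in 11.2% of tested genes, and in 12.4% for Txnrd1.

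The quinone and heme enzymes had the largest measured folds of the members, Slc7a11 having only a lower bound. Nqo1 (chromosome 8), which reduces quinones without forming the reactive semiquinone and is widely used as a readout of NRF2, stood at 17.9, 15.9 and 17.4 CPM in EV and at 73.6, 85.5 and 51.7 CPM in Sox4. The EV libraries were tightly grouped, and the lowest Sox4 library, Sox4 3, was still far above them. The mean rose 4.11-fold, from 17.1 ± 1.04 to 70.3 ± 17.2 CPM (log2 fold change 2.04 ± 0.22, edgeR adjusted p = 1.59e-05). Only 8.15% of tested genes had a larger log2 fold change.

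Hmox1 (chromosome 8), heme oxygenase 1, which opens the heme ring to give biliverdin, iron and carbon monoxide, stood at 5.31, 3.49 and 3.34 CPM in EV and at 19.6, 20.1 and 20.8 CPM in Sox4. It was low in EV, at 69, 46 and 46 counts, and nearly equal in the 3 Sox4 libraries. The mean rose 4.98-fold, from 4.04 ± 1.10 to 20.2 ± 0.616 CPM (log2 fold change 2.32 ± 0.21, edgeR adjusted p = 1.12e-05).

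Hmox1 is also abundant in liver macrophages, so the Kupffer cell markers are given beside it. Of 12 markers 11 were tested, of which 5 rose, led by Cd68, Marco and Cd5l, and none fell, and no marker was at 0 throughout. Clec4f, a defining marker, had 47, 86 and 97 counts in EV and 98, 211 and 309 in Sox4 and did not pass (log2 fold change 0.86, edgeR adjusted p = 0.113). The summed marker level was 14.4, 27.7 and 30.0 CPM in EV and 32.0, 64.3 and 73.6 CPM in Sox4. The marker sums, like Hmox1, did not overlap between the groups, and the part of Kupffer cells in the Hmox1 level was not tested.

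**Figure D3:**
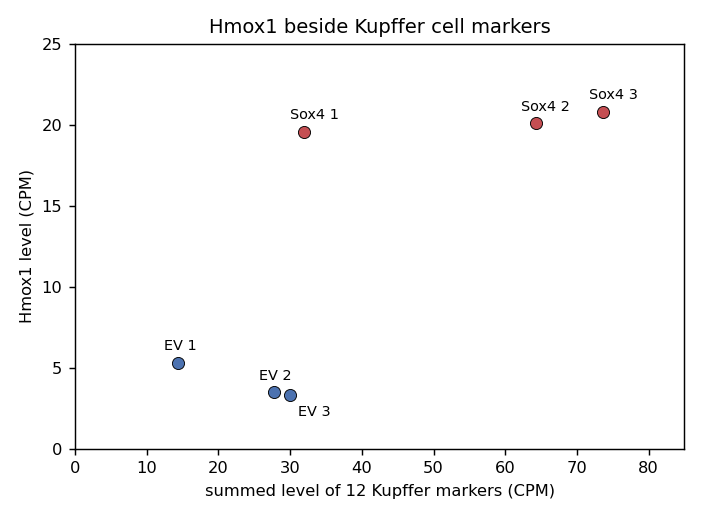
Hmox1 level against the summed level of 12 Kupffer cell markers, both in CPM on TMM-scaled library sizes with linear axes from 0, 1 labelled point per library (blue, EV; red, Sox4). Both quantities are higher in every Sox4 library, with marker sums of 14.4 to 30.0 CPM in EV against 32.0 to 73.6 CPM in Sox4.

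Markers of other cells also moved with the groups, and their part in the members' changes was not tested. Of 10 stellate markers 6 were tested and 4 rose, among them Rgs5, Reln and Col3a1, and their summed level was 11 to 50.6 CPM in EV against 98.2 to 151 CPM in Sox4. Without Reln, which carried most of it, the sums were 3.93 to 13.1 and 12.5 to 47.5 CPM and the groups overlapped. Of 10 cholangiocyte markers 5 were tested and 2 rose, Epcam and Spp1, with sums of 40.7 to 53.9 and 88.2 to 97.4 CPM, while Krt19, Krt7 and Tspan8 were at 0 in every EV library. Endothelial markers overlapped between the groups in sum (22.8 to 40.6 and 19.7 to 50.2 CPM), and of the 10 tested 2 rose, Kdr and Clec4g, and 1 fell, Stab2. Of 6 erythroid markers only Alas2 was tested and fell (log2 fold change -3.45), which took the sum from 92.9 to 126 CPM in EV to 4.96 to 15.5 CPM in Sox4. The globin genes were low, with a maximum of 22 counts, and did not fall with Alas2. Hba-a1 went from 2, 2 and 2 counts in EV to 4, 11 and 8 in Sox4. Hbb-bs went from 3, 0 and 5 counts in EV to 13, 22 and 9 in Sox4. The lower sum thus came from Alas2 alone, and whether it reflects erythroid cells was not tested.

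**Figure D4:**
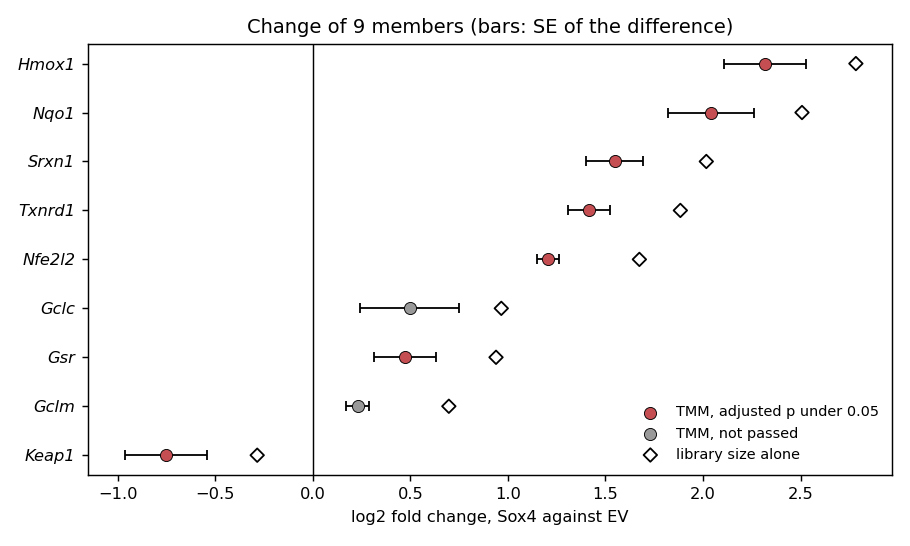
Log2 fold change of 9 members in Sox4 against EV, from edgeR with TMM scaling (circles, red where the adjusted p was under 0.05 and grey where not, with bars for the SE) and with library size alone (diamonds). All diamonds lie to the right of their circles by about 0.47, and Gclc, Gclm and Keap1 change their call between the scalings. Slc7a11, with no count in EV, is left out.

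Levels were compared between members only per kilobase of annotated exon (GENCODE M21, built on GRCm38, whereas the counts were made on GRCm39). In EV the order in CPM per kilobase was Gclc at 160 ± 16.6, Gclm at 52.6 ± 3.53, Srxn1 at 36.9 ± 3.75, Gsr at 35.5 ± 1.52, Txnrd1 at 33.2 ± 1.45, Nfe2l2 at 29.9 ± 1.5, Keap1 at 11.7 ± 1.29, Nqo1 at 11.0 ± 0.670, Hmox1 at 2.31 ± 0.627 and Slc7a11 at 0. Srxn1, Gsr and Txnrd1 overlapped one another over the libraries, as did Keap1 and Nqo1, and these do not differ beyond their spread. In Sox4 the order was Gclc at 226 ± 64.4, Srxn1 at 108 ± 15.4, Txnrd1 at 88.7 ± 11.3, Nfe2l2 at 68.9 ± 3.44, Gclm at 61.7 ± 0.711, Gsr at 49.2 ± 8.69, Nqo1 at 45.3 ± 11.1, Hmox1 at 11.5 ± 0.352, Keap1 at 6.91 ± 1.65 and Slc7a11 at 0.0653 ± 0.0182. There Srxn1 overlapped Txnrd1, and Gsr overlapped Nqo1. Gclc led in both groups, Gclm moved from rank 2 to rank 5, and Keap1 from rank 7 to rank 9. Without division by length 6 members in EV and 4 in Sox4 kept their rank.

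The wider pathway was described with 8 lists of related genes, which hold 104 genes in all. Of these 100 were tested, of which 30 were higher and 38 were lower in Sox4, with a median log2 fold change of -0.14. The share that was higher is thus close to the 29.0% of all genes, and the share that was lower is above the 26.0%. The counts of each list below are to be read against these shares too. On library size alone the balance turned, with 46 higher and 19 lower and a median of 0.33, where 50.9% of all genes were higher and 12.8% lower.

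**Figure D5:**
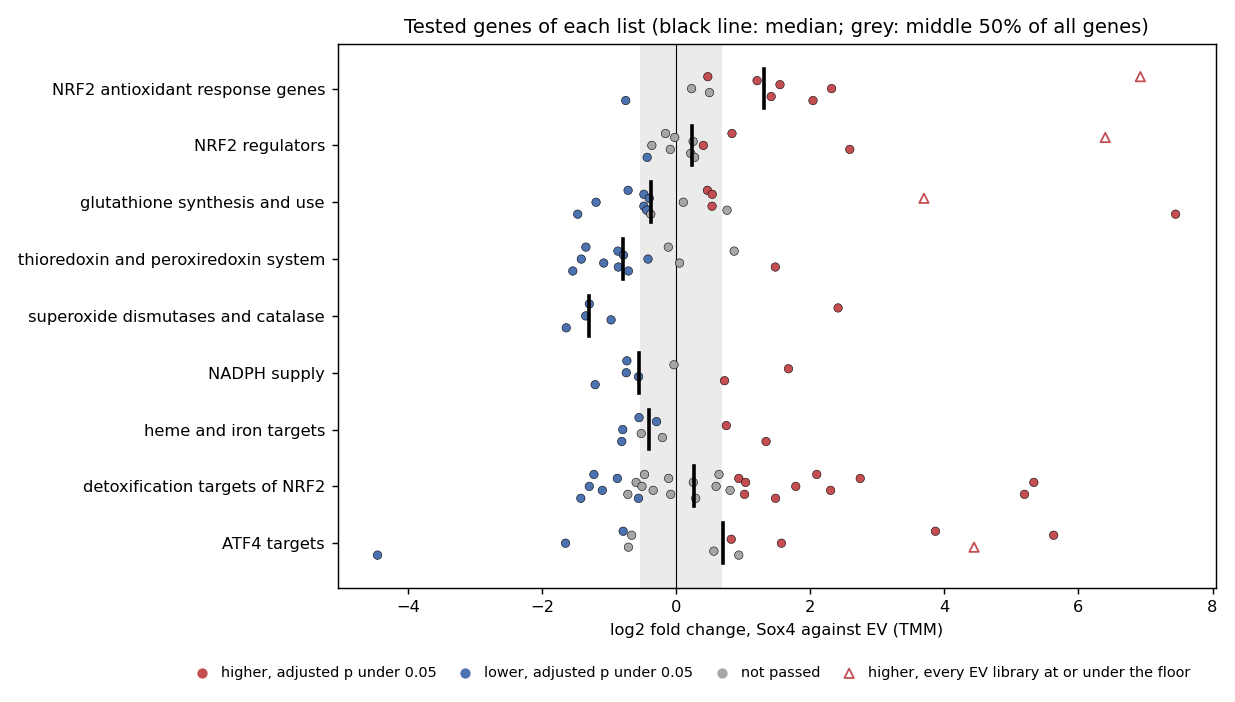
Log2 fold change (Sox4 against EV, edgeR with TMM) of each tested gene of the members' list and of the 8 related lists, 1 symbol per gene, coloured by call, with a black line at each list's median and a grey band over the middle 50% of all tested genes. Triangles mark genes at or under 3 counts in every EV library, whose position depends on the prior count of the fit. The members have the highest median, 1.31, and the superoxide dismutase and catalase list has the lowest, -1.30.

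Among 12 genes that act with NRF2 and KEAP1, 4 rose and 1 fell (median log2 fold change 0.23), where 29.0% of all tested genes rose and 26.0% fell. Maff, a small MAF partner, rose from 2.54 ± 0.691 to 15.3 ± 3.06 CPM (log2 fold change 2.59, edgeR adjusted p = 1.98e-05). The more abundant small MAF gene Mafg had 78.7 and 77.4 CPM and did not pass. Bach1, a repressor that competes with NRF2 at Hmox1, rose by a log2 fold change of 0.83 (adjusted p = 0.000382). Nfe2l3, a relative of NRF2, had 0, 3 and 0 counts in EV and 140, 115 and 159 counts in Sox4, a ratio of 93 after scaling (95% counting interval 31.6 to 453). Nfe2l1, another relative, was lower (log2 fold change -0.43, adjusted p = 0.0273), but not on library size alone (0.03, adjusted p = 0.856) and not without EV 1, EV 2, Sox4 2 or Sox4 3 (adjusted p = 0.0943, 0.052, 0.0592 and 0.087). Sqstm1, which encodes the autophagy receptor p62 that sequesters KEAP1, had 470 ± 30.1 CPM in EV against 365 ± 52.2 CPM in Sox4 and did not pass (adjusted p = 0.0523). On library size alone 9 genes of the list rose and none fell.

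Of 15 tested genes for glutathione synthesis and use, 5 rose and 7 fell (median log2 fold change -0.38). Gss, which completes glutathione from the product of GCLC, and Slc3a2, the heavy chain that pairs with SLC7A11, rose by log2 fold changes of 0.54 (edgeR adjusted p = 0.00278) and 0.53 (adjusted p = 0.00541). Gpx2, the gastrointestinal glutathione peroxidase, had 0, 5 and 0 counts in EV and 439, 415 and 522 in Sox4, a ratio of 185 (95% counting interval 79.2 to 572). Gpx3, the plasma form, had 1, 0 and 2 counts in EV and 22, 13 and 28 in Sox4, a ratio of 14.1 (4.62 to 70.4). Cth, which makes cysteine from methionine by transsulfuration, stood at 842, 790 and 464 CPM in EV and at 295, 163 and 299 CPM in Sox4. It fell by 1.47 on the log2 scale (adjusted p = 0.00248), with no overlap between groups. Chac2, which degrades glutathione, fell by 1.20 (adjusted p = 0.000153), and Glrx3, the most abundant gene of the list not to pass, had 84.7 and 91.1 CPM (adjusted p = 0.41). On library size alone the list had 7 higher and 2 lower, and without EV 2 it had 4 higher and 4 lower.

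The thioredoxin and peroxiredoxin list went the other way from Txnrd1 and Srxn1. Of 13 tested genes 1 rose and 9 fell (median log2 fold change -0.79), and on library size alone 2 rose and 7 fell. Prdx2, a cytosolic peroxiredoxin, was the gene that rose, from 99.8 ± 11.7 to 278 ± 31.6 CPM (log2 fold change 1.48, edgeR adjusted p = 2.21e-05). Txn1, thioredoxin itself and the substrate of TXNRD1, fell from 169 ± 8.89 to 92.6 ± 19.4 CPM (-0.86, adjusted p = 0.000986). Prdx5 fell by 1.54 (adjusted p = 0.000114) and Txnrd3 by 1.42 (adjusted p = 0.000963) on the log2 scale. Prdx1, the most abundant gene of the list and a known NRF2 target, stood at 1077 ± 87.5 CPM in EV against 992 ± 144 CPM in Sox4 and did not pass (adjusted p = 0.54).

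All 5 genes for the removal of superoxide and hydrogen peroxide passed, 1 higher and 4 lower, under both scalings. Cat, the peroxisomal catalase, stood at 4567, 4280 and 3978 CPM in EV and at 2293, 2237 and 2004 CPM in Sox4. It fell 1.96-fold (log2 fold change -0.97, edgeR adjusted p = 0.000412). The cytosolic Sod1 fell by 1.30 (adjusted p = 0.000471), its copper chaperone Ccs by 1.64 (adjusted p = 2.58e-05) and the mitochondrial Sod2 by 1.35 (adjusted p = 6.42e-05) on the log2 scale. Sod3, the secreted enzyme, rose by a log2 fold change of 2.41 (adjusted p = 0.0115) from only 3, 3 and 13 counts in EV to 21, 52 and 78 in Sox4, and by 3.42 without EV 3.

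NADPH, which GSR, TXNRD1 and NQO1 use as electron source, is made by enzymes of which 2 of 7 rose and 4 fell (median log2 fold change -0.56), whereas on library size alone 3 rose and 1 fell (median -0.09). G6pdx, the entry enzyme of the pentose phosphate pathway, stood at 5.54, 3.49 and 5.15 CPM in EV and at 19.1, 19.1 and 7.03 CPM in Sox4. Sox4 3 was the lowest of its group, as for Nqo1, Gclc and Gsr, and the change passed at 1.67 (edgeR adjusted p = 0.00603). Pgd, which carries out the other NADPH-forming step of that pathway, rose by 0.72 (adjusted p = 0.00933). Pgls, which acts between them, fell by 1.21 (adjusted p = 0.00024), and the cytosolic isocitrate dehydrogenase Idh1 fell by 0.75 (adjusted p = 0.00154) on the log2 scale but not past the threshold on library size alone (-0.28, adjusted p = 0.116). Tkt, a transketolase, had 214 and 209 CPM and did not pass (adjusted p = 0.878).

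Of 8 genes that act with Hmox1 in heme and iron handling, 2 rose and 4 fell (median log2 fold change -0.41), whereas on library size alone 2 rose and none fell. With TMM 2 fell without EV 1 or without EV 2, and 1 fell without Sox4 2. Slc40a1, the iron exporter ferroportin, also expressed by Kupffer cells, rose from 82.0 ± 25.7 to 208 ± 27.9 CPM (log2 fold change 1.34, edgeR adjusted p = 0.000709). Slc48a1, a heme transporter, rose by 0.75 (adjusted p = 0.000811). The ferritin heavy chain Fth1 fell by 0.80 (adjusted p = 0.00083) and the biliverdin reductase Blvrb by 0.81 (adjusted p = 0.0296) with TMM. Blvrb did not pass without EV 1, EV 2 or Sox4 2 (adjusted p = 0.0834, 0.0652 and 0.0839). Hmox2, the constitutive heme oxygenase, fell by 0.56 (adjusted p = 0.014), though not past the threshold without Sox4 2 (adjusted p = 0.0571), and Ftl1, the ferritin light chain, had 2239 and 1940 CPM (adjusted p = 0.388).

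Of 28 tested genes for conjugation, reduction and export of foreign compounds, 10 rose and 6 fell (median log2 fold change 0.27), and on library size alone 16 rose and 3 fell. With TMM 29.0% of all tested genes rose and 26.0% fell. Cbr3, a carbonyl reductase, had 3, 11 and 1 counts in EV and 354, 334 and 230 in Sox4 (log2 fold change 5.33, edgeR adjusted p = 2.22e-05, and 6.61 without EV 2). Abcc4, an efflux pump of the hepatocyte's sinusoidal membrane, had 8, 23 and 5 counts in EV and 715, 631 and 632 in Sox4 (5.19, adjusted p = 6.74e-06, and 6.06 without EV 2). The glutathione transferase Gsta4 rose 4.93-fold, from 52.5 ± 9.55 to 259 ± 47.3 CPM (adjusted p = 8.79e-06). Other transferases of the list went both ways with TMM. Gsta1 (3.87 to 25.9 CPM, adjusted p = 0.000632) and Gstm3 also rose. The more abundant Gstp1 (2594 to 1107 CPM, adjusted p = 0.0103) and Gsta3 (1706 to 928 CPM, adjusted p = 0.0114) fell, as did Gstm4 (138 to 64.2 CPM, adjusted p = 0.00215). The microsomal transferase Mgst1 fell 2.68-fold (adjusted p = 4.03e-05) and the efflux pump Abcc3 fell 2.46-fold (adjusted p = 0.000131). Gstm1, the most abundant of the genes that did not pass, stood at 3606, 3862 and 3414 CPM in EV and 7132, 6361 and 3432 CPM in Sox4 (adjusted p = 0.0537). Its Sox4 3 value lay within the EV range, and without that library it passed (log2 fold change 0.90, adjusted p = 0.000866). Glutathione transferases are a family of similar sequences, so their counts are uncertain where reads can be shared.

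Slc7a11 is also a target of ATF4, the factor of the amino acid and stress response. That list of 12 genes had 5 higher and 3 lower (median log2 fold change 0.69), where 29.0% of all tested genes were higher and 26.0% lower. Atf4 itself had 102 ± 31.0 CPM in EV against 64.2 ± 17.6 CPM in Sox4 and did not pass (edgeR adjusted p = 0.0538). Fgf21, a stress hormone of the liver, rose from 5, 2 and 6 counts to 98, 274 and 603 (log2 fold change 5.63, adjusted p = 0.00222, but 0.0864 with limma-voom, and 4.83 without Sox4 3). Phgdh, of serine synthesis, had 0, 1 and 2 counts in EV and 41, 31 and 34 in Sox4, a ratio of 23.8 (95% counting interval 7.93 to 117). The stress factor Atf3 rose by a log2 fold change of 3.87 (adjusted p = 0.000413). Chac1, a glutathione-degrading enzyme, fell by 4.46 (adjusted p = 6.63e-05) and the asparagine synthetase Asns by 1.65 (adjusted p = 0.00262) on the log2 scale.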

How the data were processed

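Per the labels and methods, reads were aligned by the authors to GRCm39 with STAR (2.7.10b in the submitters' processing notes) and counted per gene with featureCounts 2.0.1. The deposited values used here are raw counts per gene. Which annotation release was used, whether strand was considered and how reads with several positions were treated is not given in the sources used here, so overlapping genes and near-identical families are uncertain. A table of the same counts scaled by DESeq2 was not used. Genes were retained with filterByExpr (minimum count 10, minimum total 15), which left 12691. Sox4 was compared with EV (3 libraries each) in R 4.3.3 with edgeR 4.0.16 (TMM, robust quasi-likelihood F test, no covariate), with Benjamini-Hochberg adjustment over all genes tested and a threshold of 0.05. The fit recovered most, but not all, of the changes seeded into simulated data. The simulation was not used to check calls that depend on the scaling, such as those of Keap1, Gclc and Gclm. SEs are those of the difference in mean log2 CPM (prior count 2). A floor of 3 counts stands for absence, and floors and intervals cover counting error only, since PCR copies are not independent molecules. The paper counts the replicates as animals, and p-values set the difference between the groups against the spread between these libraries.

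The members and gene lists were chosen with earlier results of these data known. Named genes were all members, Sox4, from each related list the 2 largest changes in each direction past the threshold and the most abundant gene that did not pass, and from each marker list genes at 0 throughout, the most abundant gene and up to 3 that passed. One marker that this rule selects is not reported here. Bach1, Mafg, Gss, Slc3a2, Txn1, Cat, Sod1, Hmox2, Gsta1, Gsta3, Gsta4, Gstm3, Gstm4, Gstp1, Atf3, Clec4f, Hba-a1 and Hbb-bs were named after their values had been seen. So were the markers at 0 in EV alone. Alternatives were median-of-ratios size factors, library size alone, DESeq2 1.42.0, voom from limma 3.58.1, no filter (at least 1 count), a mean count of at least 50, the replicate number as a block, and leaving out each library in turn.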

Additional observations from a re-analysis of the deposited data

How the results depend on the processing

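Between 7 and 9 members passed in every fit, against 8 in the one reported, and no member changed direction. Leaving out 1 library at a time gave log2 fold changes of 0.37 to 0.61 for Gsr and 0.26 to 0.68 for Gclc, 3 to 6 genes past the threshold among the NRF2 regulators and 3 to 6 among the heme and iron genes. The fewest were left without EV 1 (3 regulators) and without Sox4 2 (3 heme and iron genes). On library size alone, where the median of all genes shifts by 0.47, 9 regulators and 2 heme and iron genes passed, Keap1 (-0.29) no longer passed, and Gclc (0.97) and Gclm (0.70) did. There Nfe2l1 (0.033), Sqstm1 (0.10), Prdx1 (0.35), Tkt (0.43) and Ftl1 (0.26) turned positive. Gclc also passed with DESeq2 (0.49) and with no filter (0.54), for which the cause was not tested. Tkt turned positive with no filter (0.0076) and ranged from -0.16 to 0.14 when 1 library was left out. With A or G required before the motif, 1 member's promoter held it. Over the alternatives, 549 values of the other named pathway genes (without Mafg, Gsta1, Gsta3, Gstm4 and Gstp1) kept their direction and call, 16 newly passed and 21 no longer passed. Genes past the threshold numbered 5937 to 8094 over all fits.

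With the replicate number as a block, 7362 genes passed, of which 6853 were shared with the 6990 of the fit without it, and Gclc passed at 0.46. Deviations of libraries with the same number had correlations of 0.27, -0.09 and 0.13. Libraries with different numbers were not compared in this way, so whether the numbers pair the libraries was not settled. With a mean count of at least 50 Slc7a11 was not tested. Depth limits Slc7a11 most, with 24 counts or fewer in a library.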

Other observations

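Within the Sox4 group, Gclc, Txnrd1, Srxn1, Gsr and Keap1 were each highest in Sox4 1 and lowest in Sox4 3, which had the most and the least Sox4 itself (1086, 770 and 598 CPM in Sox4 1, Sox4 2 and Sox4 3). Of these, Keap1 was nevertheless lower in Sox4 than in EV. Slc7a11 was also highest in Sox4 1, with equal counts of 15 in the other Sox4 libraries. Nfe2l2 (250, 258 and 276 CPM) and Hmox1 (19.6, 20.1 and 20.8 CPM) had the reverse order. Nqo1 (73.6, 85.5 and 51.7 CPM) and Gclm (393, 384 and 387 CPM) followed neither order. With 3 libraries these orders are a description only.

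Gstm3, a glutathione transferase of the detoxification list, had 6121, 5902 and 5233 counts in EV and 36127, 43422 and 8746 counts in Sox4. In CPM Sox4 3 lay within the EV range, at 443 against 380 to 471, while the other 2 Sox4 libraries were at 1808 and 2215. Its log2 fold change of 1.78 passed narrowly in edgeR (adjusted p = 0.0342). It failed with limma-voom (adjusted p = 0.0737), and in edgeR with no filter (adjusted p = 0.146) and with the replicate block (adjusted p = 0.0704). In the other alternatives that kept all libraries it passed. Without Sox4 3 its log2 fold change was 2.22 (adjusted p = 8.36e-06). Without any other single library it did not pass, with adjusted p-values of 0.0849 to 0.163.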
